A study of Mus musculus with 9 samples.

Results

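Thrombospondins are secreted, calcium-binding glycoproteins of the extracellular matrix that assemble into multimers and bind collagens, integrins and growth factors. Thbs1 and Thbs2 form trimers and carry type 1 repeats, the modules through which they reach CD36 and, in Thbs1, latent TGF-beta. Thbs3, Thbs4 and Comp (cartilage oligomeric matrix protein, thrombospondin 5) form pentamers without these repeats. The family is low in the healthy adult heart and is known to be induced in injured or overloaded myocardium. All 5 genes of the family were measured, as every probe set whose platform annotation gave exactly one of the symbols, which found 8 of the 34945 probe sets that name a single gene and 5 of 18193 genes.

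Expression was measured in the right ventricle of male mice of the C57BL6J strain, 6 to 8 weeks old. Pulmonary banding narrows the pulmonary artery so that the right ventricle pumps against raised pressure. There were 5 arrays of the pulmonary banding group and 4 arrays of sham-operated mice, of the same strain, sex, age and tissue. The design text gives the number 5 for the banded and sham mice, and only 4 sham arrays are analysed here. The labels give neither the time since surgery nor whether each array is a separate animal, so p-values measure the spread between these samples. Values are log2 expression, on a one-colour Affymetrix array, from a floor of 2.198 up to 16.43, and a group mean under 4.198 is called dim. A probe set's values are compared between groups, and its level is not read against that of another probe set as an amount of RNA. Levels served to choose the brightest probe set of a gene. Differences between probe sets within an array are read for their change between groups.

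Pairs of arrays correlated across genes at 0.993 to 0.997 within banding, at 0.983 to 0.997 within sham and at 0.945 to 0.977 between groups. Markers of ventricular cardiomyocytes were bright on every array, with list means of 15.00 to 15.28 in banding and 15.38 to 15.44 in sham. Liver transcripts, which do not belong to this tissue, averaged 2.86 to 4.92 over 12 markers on banding arrays and 9.14 to 13.16 on sham arrays, and sham replicate 4 held the most. All 12 were lower in banding, with or without that array. For the Actb control the difference between 3' and 5' probe sets, a sign of RNA integrity, was 0.86 ± 0.03 in banding (SD, n = 5), against 1.06 ± 0.08 in sham (SD, n = 4; exact permutation p = 0.00794, the smallest these group sizes allow). The same difference for Gapdh was -0.15 ± 0.01 in banding and -0.10 ± 0.09 in sham (exact permutation p = 0.317). The part of these measures in the results below was not tested.

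The RefSeq promoter table (GRCm38.p6) held entries for 3 of the 5 members, Thbs2, Thbs3 and Thbs4, and the 250 bases before each start are shown because these genes rose together. Capitals mark matches, on either strand, to CAGACA, a sequence bound by SMAD proteins, to TGACTCA, the AP-1 site, to GGGCGG, the GC box, to TATAAA, the TATA box, and to CCACG, the core bound by ATF6 in endoplasmic reticulum stress elements. The windows lie at chr17:14694263-14694512 on the minus strand for Thbs2, chr3:89214930-89215179 on the plus strand for Thbs3 and chr13:92794819-92795068 on the minus strand for Thbs4, and each is written 5′ to 3′ along its gene.
Thbs2: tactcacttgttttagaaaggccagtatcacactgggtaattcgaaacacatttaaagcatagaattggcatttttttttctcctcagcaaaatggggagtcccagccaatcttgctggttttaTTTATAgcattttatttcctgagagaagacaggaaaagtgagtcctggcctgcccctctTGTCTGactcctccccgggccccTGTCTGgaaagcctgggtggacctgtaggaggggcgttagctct
Thbs3: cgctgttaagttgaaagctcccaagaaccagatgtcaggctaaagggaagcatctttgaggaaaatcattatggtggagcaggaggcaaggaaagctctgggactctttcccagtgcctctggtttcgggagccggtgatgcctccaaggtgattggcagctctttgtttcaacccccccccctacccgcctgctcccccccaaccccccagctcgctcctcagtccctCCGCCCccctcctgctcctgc
Thbs4: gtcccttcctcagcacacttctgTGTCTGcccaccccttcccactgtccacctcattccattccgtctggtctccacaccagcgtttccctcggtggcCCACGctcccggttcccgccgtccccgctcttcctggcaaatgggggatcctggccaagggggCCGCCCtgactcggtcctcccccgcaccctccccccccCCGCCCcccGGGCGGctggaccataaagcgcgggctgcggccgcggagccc
The Thbs2 window had CAGACA at 67 to 62 and at 44 to 39 bases before the start and TATAAA ending 121 bases before it. Thbs3 had a single match, GGGCGG at 21 to 16 bases before the start. Thbs4 had GGGCGG at 89 to 84, 51 to 46 and 42 to 37 bases before the start, CCACG at 152 to 148 and CAGACA at 227 to 222. None of the 3 windows held TGACTCA. Among 27025 promoter windows of this length, 17.1% held CAGACA, 4.43% TGACTCA, 32.9% GGGCGG, 28.2% CCACG, and 3504 windows held TATAAA. The GC content was 46.8% for Thbs2, 58.8% for Thbs3 and 70.8% for Thbs4, against a median of 52.0% over all windows. The 3 windows thus differ in base composition, and no motif of the search occurred in all of them.

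Banding was compared with sham to ask how the family responds to pressure load of the right ventricle. All 5 genes rose, and all 8 probe sets rose when probe sets were tested singly. Over all 18193 genes, 38.4% passed an adjusted p of 0.05 in limma and 18.4% were higher in banding. The shares over all genes, here and below, include 7180 genes dim in both groups. When only the 10748 genes averaging above the dim level were fitted, 3490 were higher and 3722 lower. Over the 45037 probe sets tested singly, 12.8% were higher. For each member, every banding array lay above every sham array, which held for 17.4% of all genes. The members' median difference was 4.05 log2 units, against 0.00 over all genes. Rises of at least 2 log2 units were found for 2.30% of all genes, and all 5 members exceeded that size. In whole tissue, more cells of a type and more RNA per cell cannot be told apart.

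**Figure D1:**
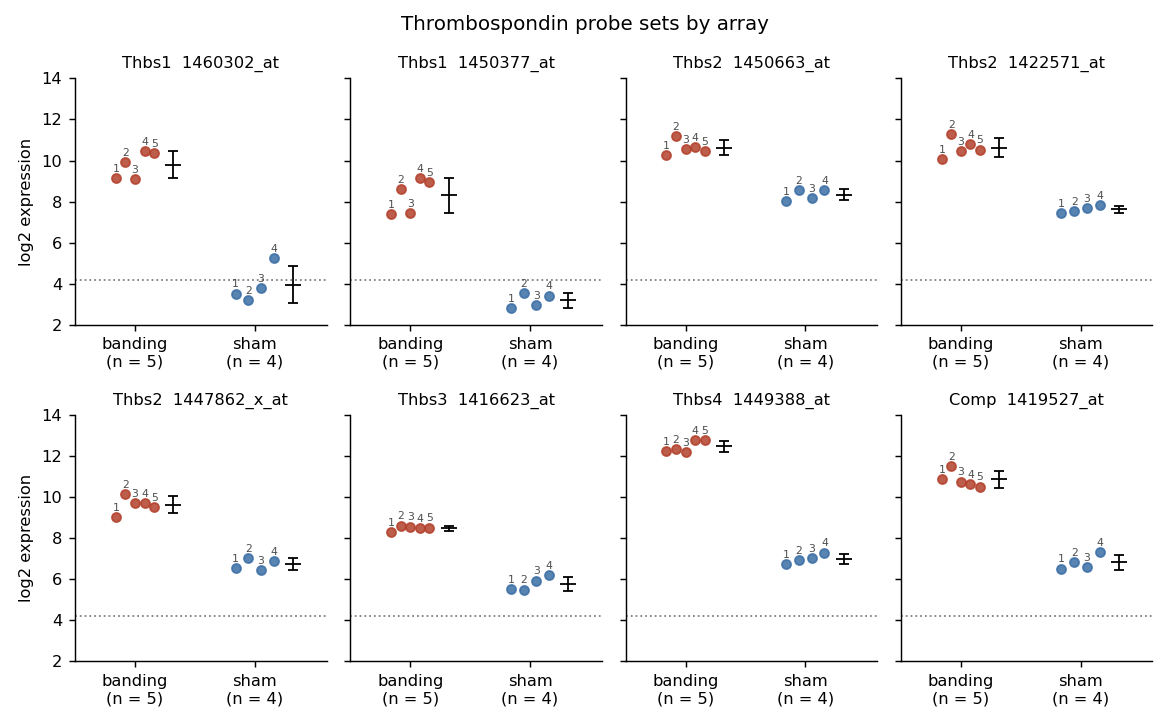
Log2 expression of the 8 thrombospondin probe sets on each array, with banding at the left and sham at the right of each panel. Points are arrays with their replicate number, bars are the mean and SD, and the dotted line is the dim level of 4.198. In every panel the lowest banding array stands above the highest sham array, and all sham points of Thbs1 except replicate 4 of 1460302_at lie under the dotted line.

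Thbs4 had the smallest p-value of the family. In mouse hearts the protein is induced by injury and acts partly inside the cell, where it binds ATF6 in the endoplasmic reticulum. It read 12.25, 12.34, 12.22, 12.77 and 12.79 on banding replicates 1 to 5, against 6.73, 6.93, 7.05 and 7.30 on sham replicates 1 to 4. Banding replicates 4 and 5 formed the upper end of their group, and the groups were 4.93 log2 units apart at their closest arrays. The mean was 12.48 ± 0.28 in banding (SD, n = 5), against 7.0 ± 0.24 in sham (SD, n = 4), a rise of 5.47 ± 0.17 log2 units (SE), or 44.4-fold (limma adjusted p = 6.8e-06). Among the 10373 genes above the dim level in both groups, this rise ranked 6, and the p-value ranked 8 among all genes.

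Thbs1, an activator of latent TGF-beta and an inhibitor of angiogenesis, was the member with the largest fitted difference and the largest spread. The brighter of its 2 probe sets, 1460302_at, read 9.13, 9.94, 9.10, 10.48 and 10.35 on banding replicates 1 to 5, against 3.52, 3.21, 3.80 and 5.26 on sham replicates 1 to 4. Of the sham values only that of replicate 4 was above the dim level. The mean was 9.80 ± 0.65 in banding (SD, n = 5), against 3.95 ± 0.91 in sham (SD, n = 4), with a fitted difference of 5.85 ± 0.50 log2 units (SE, limma adjusted p = 0.000122). Because sham was dim, the rise is given as a lower bound of at least 40.4-fold. The second probe set, 1450377_at, read 7.40, 8.62, 7.42, 9.14 and 8.93 in banding, against 2.83, 3.54, 2.95 and 3.42 in sham. Its rise was at least 17.2-fold (fitted difference 5.12 ± 0.44, adjusted p = 0.000194 over all probe sets). Both probe sets put banding replicates 2, 4 and 5 above replicates 1 and 3, by at least 0.81 log2 units on the first and 1.19 on the second. In sham they differed, with replicate 4 highest on the first and replicate 2 highest on the second. Blood platelets store the Thbs1 protein, and of 12 platelet and megakaryocyte markers 0 were higher and 2 lower in banding, beside 18.4% higher and 20.0% lower of all genes. As 8 of the 12 were dim in both groups, the count bears on few of them. Clec1b (adjusted p = 0.0377) and F13a1 (adjusted p = 0.00222) were the lower ones. The list mean was 4.17 to 4.59 in banding and 4.46 to 5.49 in sham, Gp5 and Gp6 lay at the floor on all arrays, and Clec1b missed the threshold without sham replicate 4 (adjusted p = 0.0778) and without 6 of the other arrays. Pf4, a platelet chemokine, differed by -0.19 ± 0.11 (adjusted p = 0.238). Ppbp averaged 5.77 ± 1.07 in banding and 7.81 ± 1.22 in sham. Its difference of -2.04 ± 0.74 did not pass (adjusted p = 0.0657), but did in 4 alternatives.

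Comp, a protein of cartilage and tendon that binds collagen fibrils and whose mutations cause human skeletal dysplasias, read 10.89, 11.53, 10.76, 10.63 and 10.52 on banding replicates 1 to 5. The sham replicates 1 to 4 read 6.52, 6.83, 6.61 and 7.32. Banding replicate 2 was highest in its group, and the closest arrays of the groups were 3.20 log2 units apart. The mean was 10.87 ± 0.40 in banding (SD, n = 5), against 6.82 ± 0.36 in sham (SD, n = 4), a rise of 4.05 ± 0.25 log2 units (SE), or 16.5-fold (adjusted p = 3.64e-05). The rise ranked 23 among the genes above the dim level in both groups.

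Thbs3, whose overexpression in mouse hearts is known to lower integrins at the cardiomyocyte membrane, was the tightest member in banding. It read 8.30, 8.62, 8.57, 8.48 and 8.52 on banding replicates 1 to 5, against 5.53, 5.50, 5.94 and 6.20 on sham replicates 1 to 4. The banding values spanned 0.33 log2 units and the sham values 0.70, with no overlap. The mean was 8.50 ± 0.12 in banding (SD, n = 5), against 5.79 ± 0.34 in sham (SD, n = 4), a rise of 2.71 ± 0.16 log2 units (SE), or 6.52-fold (adjusted p = 3.2e-05).

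Thbs2, a regulator of collagen fibril assembly and of matrix metalloproteinase 2 clearance, had the smallest rise. Its brightest probe set, 1450663_at, read 10.27, 11.20, 10.56, 10.67 and 10.45 on banding replicates 1 to 5, against 8.03, 8.55, 8.19 and 8.57 on sham replicates 1 to 4. The mean was 10.63 ± 0.35 in banding (SD, n = 5), against 8.33 ± 0.27 in sham (SD, n = 4), a rise of 2.30 ± 0.21 log2 units (SE), or 4.92-fold (adjusted p = 0.000149). The groups were 1.70 log2 units apart at their closest arrays. Probe set 1422571_at read 10.08, 11.27, 10.46, 10.82 and 10.53 in banding, against 7.42, 7.55, 7.67 and 7.84 in sham, a rise of 3.01 ± 0.23, or 8.07-fold (adjusted p = 0.000136 over all probe sets). Probe set 1447862_x_at read 9.02, 10.16, 9.70, 9.72 and 9.53 in banding, against 6.55, 7.05, 6.44 and 6.90 in sham, a rise of 2.89 ± 0.24, or 7.41-fold (adjusted p = 0.000166). All 3 put banding replicate 2 highest and banding replicate 1 lowest. The size of the Thbs2 rise therefore depends on the probe set by more than 1.5-fold, while its direction and call do not.

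**Figure D2:**
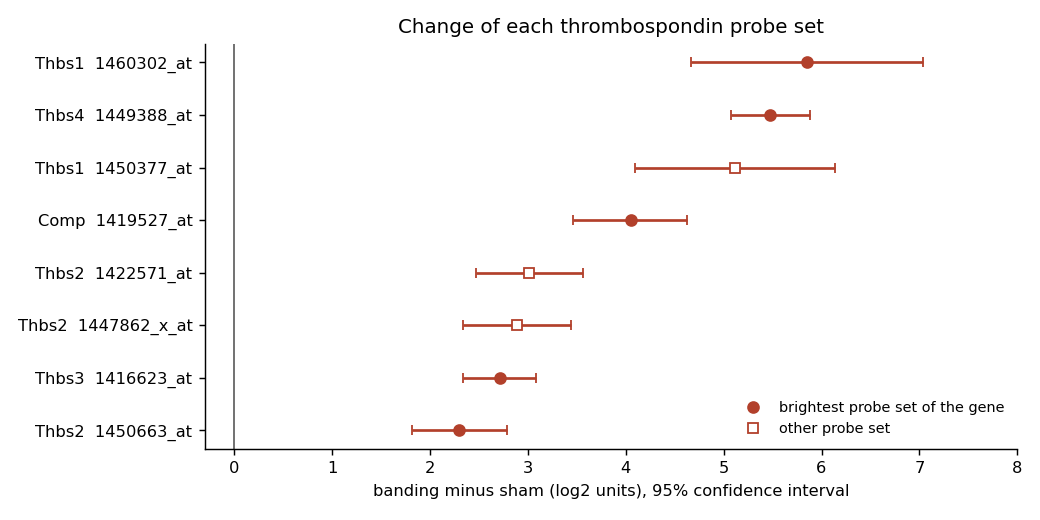
Banding minus sham in log2 units for each probe set, with 95% confidence intervals from limma over all probe sets (5 against 4 arrays). Filled circles are the brightest probe set of a gene and open squares its other probe sets. All intervals lie above 0, the 3 probe sets of Thbs2 and that of Thbs3 lie between 2.30 and 3.01, and those of Thbs1, Thbs4 and Comp lie at 4.05 or more.

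Sham replicate 4 was the highest sham array for all 5 members and for 6 of the 8 probe sets. It was the highest sham array in 21.4% of all genes above the dim level and in 30.3% of the genes called higher in banding. Leaving out the highest sham array must raise each difference, so the larger values without it are no evidence of stability. Without it the differences were 6.29 for Thbs1, 5.57 for Thbs4, 4.21 for Comp, 2.84 for Thbs3 and 2.38 for Thbs2. All 5 passed. Among banding arrays the highest was replicate 4 for Thbs1, replicate 5 for Thbs4, and replicate 2 for Thbs2, Thbs3 and Comp. The members thus do not share a single order of banding arrays.

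Whether the brightest probe sets of 2 members changed by unequal amounts was tested on their difference within each array. This removes any shift common to an array, but not an unequal response of the probe sets. All 10 pairs were compared by a two-sided exact permutation test, adjusted over the 10 pairs. On these probe sets the rises of Thbs1 and Thbs4 each exceeded those of Comp, Thbs3 and Thbs2. The rise of Comp exceeded those of Thbs3 and Thbs2. Probe sets of a single gene also differed, with rises of 2.30, 3.01 and 2.89 for Thbs2. A passing pair therefore does not show that the transcripts themselves rose by unequal amounts. Thbs4 minus Comp averaged 1.61 ± 0.60 in banding (SD, n = 5), against 0.18 ± 0.20 in sham (SD, n = 4), a difference of 1.43 (exact p = 0.0159, adjusted 0.0198). Thbs4 minus Thbs2 gave 1.84 ± 0.46 in banding and -1.33 ± 0.20 in sham, a difference of 3.18 (exact p = 0.00794, adjusted 0.0113). Comp minus Thbs3 gave 2.37 ± 0.37 in banding and 1.03 ± 0.28 in sham, a difference of 1.34 (exact p = 0.00794, adjusted 0.0113). The other passing pairs differed by 1.75 to 3.56 with the same p. The other 2 pairs did not pass and overlapped between groups, which does not show that their members changed alike.

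**Figure D3:**
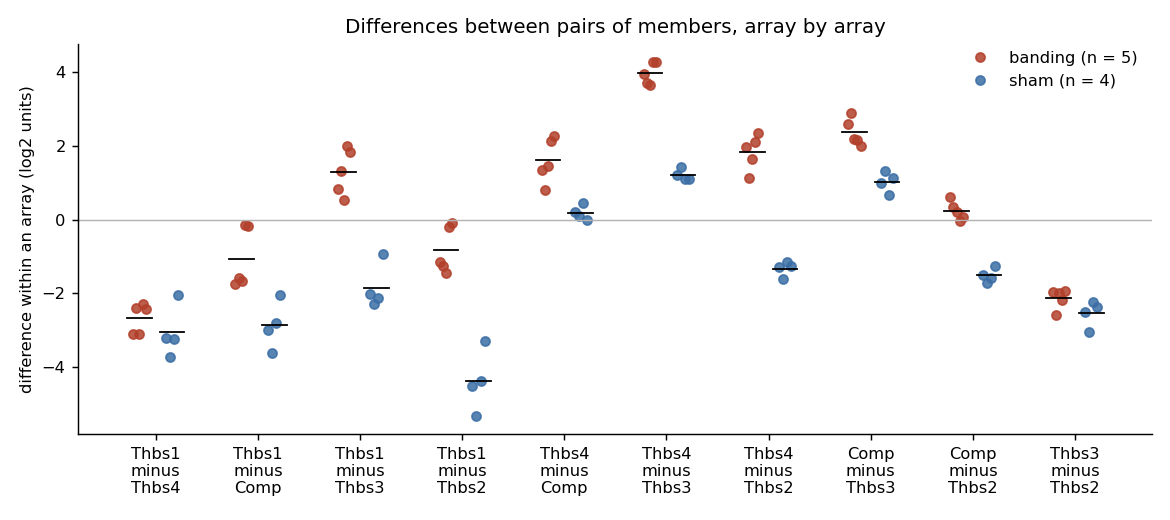
Difference between the log2 values of 2 members within each array, for all 10 pairs, with banding at the left and sham at the right of each pair and lines at the means. The groups separate in 8 pairs and overlap for Thbs1 minus Thbs4 and for Thbs3 minus Thbs2.

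Thbs1 minus Thbs4 differed by 0.38 (exact p = 0.341), or by 0.72 without sham replicate 4 (adjusted p = 0.0397) and by -0.14 with all values raised to at least the dim level. Thbs3 minus Thbs2 differed by 0.41 (exact p = 0.0794, adjusted 0.0882), by 0.52 without banding replicate 2 (adjusted p = 0.0317) and by -0.03 with the mean of all probe sets. The differences that involve Thbs1 rest on sham values mostly under the dim level, and with all values raised to that level they were 1.29 against Comp, 2.63 against Thbs3 and 3.04 against Thbs2 (adjusted p = 0.0298, 0.0132 and 0.0132). Thbs1 minus Comp, 1.81, was not past the threshold without sham replicate 2 (1.56, adjusted p = 0.067). On the brightest probe sets, trimeric and pentameric members were both among the larger and both among the smaller rises.

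The thrombospondin receptors were mostly higher. Of 20 measured, 13 rose, 2 fell and 5 missed the threshold, at a median of 0.93 log2 units, beside 18.4% higher and 20.0% lower of all genes. Sdc1, a cell surface heparan sulfate proteoglycan, had the largest rise (2.36). Integrin subunits followed, with Itgav 2.72-fold (1.45 ± 0.07, adjusted p = 2.1e-05), Itgb5 3.27-fold (1.71 ± 0.14, adjusted p = 9.75e-05) and Itga6 2.52-fold (1.33 ± 0.08, adjusted p = 3.78e-05). Averaged over their probe sets, Sdc1 rose by 1.85 and Itgav by 0.54. Lrp1, an endocytic receptor that clears thrombospondins, rose 2.07-fold (adjusted p = 0.000329), and Sirpa, a ligand of CD47, 2.31-fold (adjusted p = 0.000199). Itgb3 averaged 4.25 ± 0.42 in banding and 3.32 ± 0.55 in sham, with an adjusted p of 0.04998 that was lost without sham replicate 4 (adjusted p = 0.102) and under most alternatives.

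Cd36, a fatty acid transporter and the receptor for type 1 repeats, fell 1.25-fold, at 14.25 ± 0.07 in banding and 14.57 ± 0.10 in sham (-0.32 ± 0.05, adjusted p = 0.00206). Averaged over its probe sets, it fell by 0.85 (adjusted p = 0.000714). Cacna2d1, the calcium channel subunit that binds thrombospondins in neurons, fell 1.71-fold, at 11.45 ± 0.15 in banding and 12.22 ± 0.07 in sham (adjusted p = 0.000256). Both are also abundant in cardiomyocytes, of whose 12 markers 0 were higher and 7 lower, beside 18.4% higher and 20.0% lower of all genes. The lower count among these markers was 4 without sham replicate 4, and 2 without banding replicate 5 as well. Any part of cardiomyocytes in the falls of Cd36 and Cacna2d1 was not tested. Cd47 did not pass, at 10.78 ± 0.07 in banding and 10.77 ± 0.10 in sham (adjusted p = 1), although the mean of its probe sets gave 0.17 (adjusted p = 0.0161). The others that did not pass were Stim1 (0.33, adjusted p = 0.0919), Sdc4 (-0.40, adjusted p = 0.0547), Itga3 (0.01) and Nlgn1, which was dim in both groups. Without sham replicate 4, Stim1 and Sdc4 passed in these directions (adjusted p = 0.0469 and 0.0105).

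Thbs1 releases active TGF-beta from its latent complex, and the ligands, latency proteins, receptors and signalling genes of TGF-beta were followed as a list. Of 16 measured, 11 rose, 3 fell and 2 missed the threshold, at a median of 0.99. Over all genes 18.4% were higher and 20.0% lower. Tgfb1 rose 1.71-fold (0.77 ± 0.14, adjusted p = 0.00347) and Tgfb3 7.38-fold (2.88 ± 0.17, adjusted p = 3e-05). Ltbp2, a latent TGF-beta binding protein that itself does not bind the latent ligand, rose at least 66.7-fold (adjusted p = 9.98e-06), and Ltbp3 3.85-fold (adjusted p = 1.13e-05). Skil, a repressor induced by TGF-beta signalling, rose 3.03-fold (adjusted p = 3e-05). Averaged over its probe sets, Ltbp3 rose by 1.26 log2 units in place of 1.95. The 3 that fell were Ltbp1 (-0.40), Tgfbr3 (-0.99) and Itgb6 (-1.70). Without sham replicate 4 and banding replicate 5, Ltbp1 (adjusted p = 0.0659) and Itgb6 (adjusted p = 0.0605) missed the threshold and 1 lower gene was left. Smad3 (0.01) and Nrros (0.53, adjusted p = 0.0541) did not pass. The value of Nrros passed without sham replicate 2.

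Thbs4 binds ATF6, the endoplasmic reticulum sensor that switches on chaperone genes. Of 24 genes of this branch and of the chaperones, 10 rose, 2 fell and 12 missed the threshold, at a median of 0.32. Over all genes 18.4% were higher and 20.0% lower. No gene of this list was dim in both groups. In the fit of the 10748 genes averaging above the dim level, 3490 were higher and 3722 lower. Pdia3, a disulfide isomerase, rose 2.06-fold (1.04 ± 0.08, adjusted p = 6.66e-05), and by 0.64 log2 units when its probe sets were averaged. The proteases that cleave ATF6 rose slightly, Mbtps1 1.42-fold (adjusted p = 0.00103) and Mbtps2 1.44-fold (adjusted p = 0.000527). Atf6 itself fell 1.39-fold, at 9.95 ± 0.13 in banding and 10.42 ± 0.08 in sham (adjusted p = 0.00143), and Herpud1, a component of protein degradation at the reticulum, fell 1.81-fold (adjusted p = 0.00111). Hspa5, the chaperone most used to read ATF6 activity, did not pass, at 13.16 ± 0.22 in banding and 13.41 ± 0.23 in sham (adjusted p = 0.246). The other rises past the threshold in this list were 0.30 to 0.70 log2 units. Transcripts of the list thus changed by small amounts, more of them up than down. Any link to the 44.4-fold rise of Thbs4 was not tested.

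**Figure D4:**
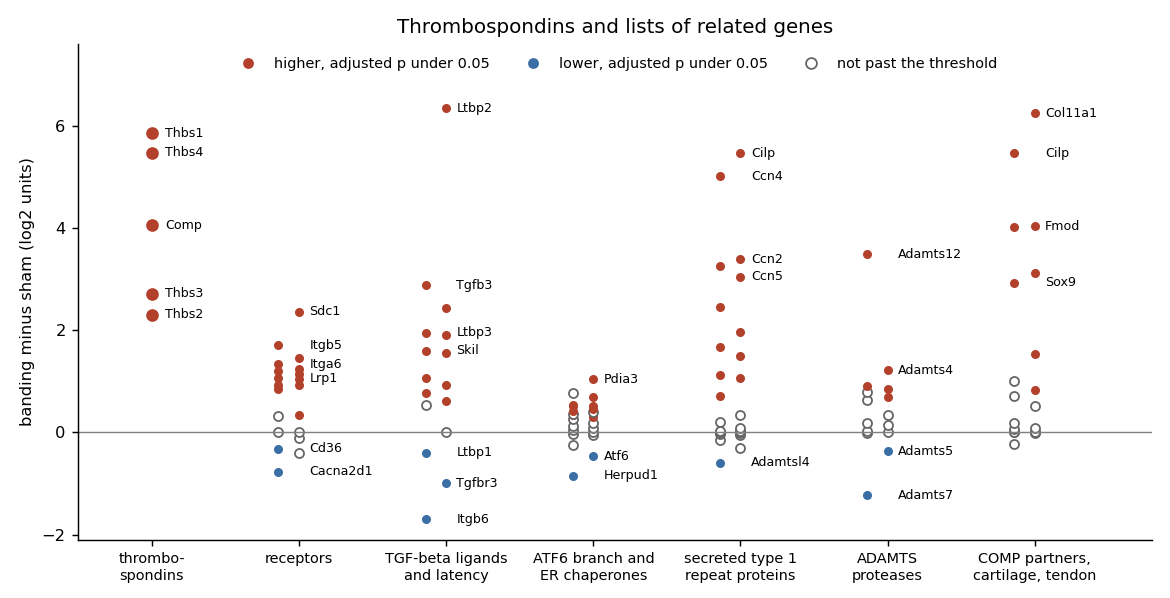
Banding minus sham in log2 units for the 5 thrombospondins and for each measured gene of 6 related lists. Filled points passed an adjusted p of 0.05 in limma over all genes (red higher, blue lower in banding), open points did not, and labels mark some of the genes that passed. The receptors lie between -0.77 and 2.36 and the endoplasmic reticulum genes between -0.85 and 1.04, and of these only the receptor Sdc1 rose more than the 2.30 of Thbs2.

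Other genes for proteins with type 1 repeats also rose in part. Of 26 measured, 12 rose, 1 fell (Adamtsl4, -0.59) and 13 missed the threshold, at a median of 0.27. Of the 26, 11 were dim in both groups, and 1 of these was among those that rose. Beside these counts, 18.4% of all genes were higher and 20.0% lower. Cilp, an intermediate layer protein of cartilage that is also made by cardiac fibroblasts, rose 44.1-fold (5.46 ± 0.40, adjusted p = 7.13e-05). Among the CCN proteins, Ccn4 rose 32.2-fold (adjusted p = 2.74e-05), Ccn2 10.5-fold (adjusted p = 0.000222) and Ccn5 8.26-fold (adjusted p = 0.000212).

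The ADAMTS proteases carry type 1 repeats as well, and ADAMTS7 and ADAMTS12 cleave COMP. Of 15 measured, 5 rose, 2 fell and 8 missed the threshold, at a median of 0.35, beside 18.4% higher and 20.0% lower of all genes. The 2 COMP-cleaving enzymes went opposite ways. Adamts12 rose 11.2-fold, at 8.15 ± 0.21 in banding and 4.66 ± 0.23 in sham (3.49 ± 0.14, adjusted p = 1.09e-05), while Adamts7 fell 2.35-fold, at 5.01 ± 0.33 in banding and 6.24 ± 0.32 in sham (-1.23 ± 0.21, adjusted p = 0.00261). Averaged over its probe sets, Adamts12 rose by 1.74. Adamts10 rose by 0.84, or by 0.47 when its probe sets were averaged. Adamts9 rose by 0.70, and Adamts5 fell by 0.37. Adamts4 and Adamts6, which were dim in sham, rose at least 1.64-fold and at least 1.71-fold, and Adamts4 missed the threshold with all values raised to the dim level (0.72, adjusted p = 0.0693). Adamts5 missed the threshold without sham replicate 4 (adjusted p = 0.064) and without 3 of the other arrays.

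In a list of COMP partners and other cartilage or tendon genes, some rose as well. Of 20 measured, 8 rose, 0 fell and 12 missed the threshold, at a median of 0.61, beside 18.4% higher and 20.0% lower of all genes. The 12 genes dim in both groups included Acan at the floor on all arrays and the cartilage collagen gene Col2a1, so both these defining cartilage transcripts were dim. Col11a1 rose at least 25.9-fold (adjusted p = 9.98e-06), Fmod, which binds collagen fibrils, 16.2-fold (adjusted p = 3.3e-05) and Tnmd, a tendon gene, at least 5.22-fold (adjusted p = 5.62e-05). Cilp stands in this list too. Matn4, a matrilin, rose at least 2.62-fold (adjusted p = 9.75e-05). Sox9, the cartilage transcription factor also active in cardiac fibroblasts, had a rise of 2.93 log2 units, 7.64-fold (adjusted p = 0.001), and of 1.74 when its probe sets were averaged.

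Fibroblasts are a main source of thrombospondins, and most of their markers were higher in banding. Of 16 markers, 13 were higher and 2 lower, Gsn (-1.03) and Dpep1 (-1.50). Without sham replicate 4 and banding replicate 5, 1 lower marker was left. Over all genes 18.4% were higher and 20.0% lower, which also stands beside each count below. The list mean of the fibroblast markers ran from 12.18 to 12.53 in banding and from 10.68 to 10.88 in sham. None of these markers lay at the floor. Several of them, such as Col1a1 (28.0-fold, 4.81 log2 units) and Postn (25.2-fold), are matrix genes, whereas Tcf21, a fibroblast transcription factor, rose 2.55-fold (adjusted p = 0.000543). Averaged over their probe sets, Col1a1 rose by 3.69 log2 units and Tcf21 by 0.80 in place of 1.35. Of 13 macrophage markers 11 were higher and 1 lower, with list means of 10.06 to 10.64 in banding and 8.89 to 9.18 in sham. Of 12 smooth muscle and pericyte markers 7 were higher and 1 lower (9.12 to 9.41 in banding, 8.27 to 8.67 in sham), and of 14 endothelial markers 8 were higher and 0 lower (9.14 to 9.60 in banding, 8.88 to 9.18 in sham). Of 8 atrial markers 3 were higher and 0 lower (8.46 to 10.08 in banding, 7.50 to 8.94 in sham). These 3 were Nppa (2.76), Nr2f1 (0.80) and Nr2f2 (0.45). Myl4 (0.82), Myl7 (0.19) and Sln (0.25) did not pass, and Myl7 ran from 9.06 to 13.44 in banding and from 9.03 to 11.63 in sham. Of 10 epicardial and mesothelial markers 5 were higher and 0 lower (5.28 to 6.51 in banding, 5.40 to 6.00 in sham). The part of these cell types in the rises of the thrombospondins was not tested.

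The genes most like each member were found by the root mean square difference between 2 profiles over the 9 arrays, each taken from its own mean, among the 10748 genes averaging above the dim level. The group difference dominates this measure, and it is given as a description. Where a gene was dim in sham, as Thbs1, Col8a2, Egr3 and Gpr176 were, its distances and ranks rest in part on values under the dim level. Nearest to Thbs1 were Ecrg4 (0.37 log2 units), Col8a2 (0.39) and Ptn (0.46), of which Ecrg4 rose 57.8-fold, Col8a2 at least 29.8-fold and Ptn 76.7-fold. Nearest to Thbs4 were Egr3 (0.38), an immediate early transcription factor, Ccn4 (0.41) and Gpr176 (0.44), of which Egr3 rose at least 28.2-fold, Ccn4 32.2-fold and Gpr176 at least 9.83-fold. Nearest to Comp were Col14a1 (0.21), a collagen of fibril surfaces, Fmod (0.24) and Fn1 (0.28), which encodes fibronectin, with rises of 3.86, 4.02 and 4.02. Nearest to Thbs3 were Antxr1 (0.17), Robo1 (0.18) and Bgn (0.18), which encodes biglycan, and nearest to Thbs2 were Gucy1a1 (0.17), Rcn3 (0.17) and Aebp1 (0.19). Averaged over their probe sets, the fitted differences were 4.34 log2 units for Ecrg4, 4.31 for Ptn, 2.63 for Egr3, 1.58 for Aebp1, 1.36 for Antxr1 and 0.83 for Robo1, against 5.85, 6.26, 5.26, 2.26, 2.67 and 2.51 for the brightest probe set. Within the family, Thbs4 ranked 6 among the genes nearest to Thbs1, at 0.53, and Thbs1 ranked 14 among those nearest to Thbs4.

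**Figure D5:**
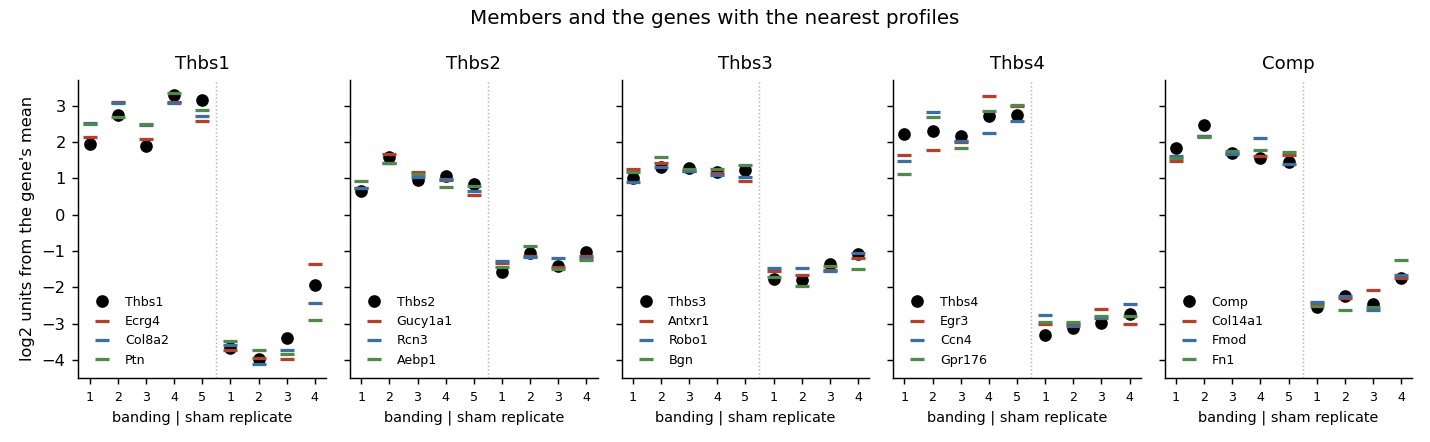
Profiles of each member (black points) and of the 3 genes nearest to it (coloured bars) over banding replicates 1 to 5 and sham replicates 1 to 4, in log2 units from the gene's own mean over the 9 arrays. Thbs1 and Ecrg4 share a raised sham replicate 4, and the Comp panel shows all 4 genes higher in sham replicate 4 than in sham replicate 1.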

How the data were processed

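RNA from right ventricular myocardium was hybridised to one array per sample, 5 of pulmonary banding and 4 of sham. The values used are log2 expression as the authors deposited them. RMA and GCRMA are named in the submitters' processing notes, with no role or version, so which one made these values is not settled. No further normalization was applied. The table had 45101 probe sets, of which 64 controls, 9160 without a gene and 932 naming several genes were left out. The remaining 34945 name 1 gene each, from the platform annotation. For each of the 18193 genes the probe set brightest on average was used. Groups were compared with limma 3.58.1 (lmFit and eBayes, R 4.3.3), in a two-sided test whose p-values were adjusted by Benjamini and Hochberg's method over the 18193 genes, with a threshold of 0.05. The script was tested on simulated data.

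The floor of the values was 2.198, and 29.0 to 31.5% of each array's values lay there. Arrays have no read depth, and their number limits the precision. A group mean under the floor plus 2 was called dim, and a fold against a dim group is a lower bound that sets each of its arrays to at least 4.198. Members' changes were compared in pairs with exact permutation tests.

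The members, lists and tests were chosen with earlier results of these data known. The rule named all members, up to 4 genes past the threshold with the smallest p per list, a set of fixed genes, and the 3 genes nearest in profile to each member. Ltbp1, Itgb6, Tgfbr3, Adamtsl4, Adamts4, Adamts5, Adamts6, Itga3, Sdc1, Sdc4, Nlgn1, Nrros, Smad3, Sox9, Matn4, Tcf21, Gp5, Gp6, Acan and Col2a1 fall outside it and were named after their values were seen. Gsn, Dpep1, Myl4, Myl7 and Sln were likewise named after their values were seen. Genes beside the members on a chromosome were named by position. The search for protein motifs was not run, as no protein sequences were used here. Alternatives covered the choice of probe set, filters, normalization, the model and each array left out.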

Additional observations from a re-analysis of the deposited data

Results flagged for a closer look

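The gap of 1 array to its nearest neighbour, over the range of its group, was set against Dixon's 95% value. It exceeded that value in 15 (9.15%) of 164 groups of values and for none of the 5 thrombospondins. With 4 or 5 arrays only a wide gap exceeds it, so a raised array can go unflagged. Thbs1 read 5.26 on sham replicate 4 and 3.21 to 3.80 on the other sham arrays. These groups cover most of the genes named, and chance gives about 1 in 20.

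On banding arrays, replicate 2 was high for Clec1b (4.26, others 3.05 to 3.31) and Ppbp (7.63, others 5.10 to 5.66). Banding replicate 3 was high for Serinc5 (8.33, others 8.02 to 8.11) and banding replicate 4 for Itgb3 (5.00, others 4.03 to 4.15) and Col2a1 (3.41, others 2.99 to 3.11). Banding replicate 5 was high for Hspa5 (13.54, others up to 13.15), and low for Adamts9 (7.99, others 8.36 to 8.43) and Smad3 (7.61, others 7.93 to 8.02). On sham arrays, replicate 4 was high for Ecrg4 (7.63, others 5.00 to 5.26), Fn1 (10.53, others 9.15 to 9.26), Robo1 (5.89, others 5.39 to 5.47) and Nlgn1 (2.64, others at the floor). Sham replicate 2 was low for Col11a1 (2.2, others 2.79 to 2.83) and differed at the second decimal for Itga3 (5.16, others at 5.15), and sham replicate 3 was high for Egr3 (4.07, others at 3.65).

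A further probe set, annotated to both Pald1 and Thbs1 and so in no comparison above, differed by 5.00 ± 0.38 log2 units (adjusted p = 0.00013 over all probe sets). It averaged 12.77 ± 0.50 in banding (SD, n = 5), against 7.76 ± 0.67 in sham (SD, n = 4). No gene is named from it.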

How the results depend on the processing

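All 5 members stayed higher in banding with an adjusted p under 0.05 in all 20 alternatives. The difference ranged from 5.34 to 6.29 for Thbs1, from 2.16 to 2.73 for Thbs2, from 2.61 to 2.84 for Thbs3, from 5.38 to 5.57 for Thbs4 and from 3.88 to 4.30 for Comp. Genes past the threshold numbered 6989, from 6270 to 6701 with 1 array left out, and 11670 of 45037 features when every probe set was tested singly, which tests more features. Same-numbered arrays of the 2 groups did not deviate together (correlations of 0.04, 0.00, -0.03 and -0.02 for replicates 1 to 4 over 10748 genes). With the replicate block, which leaves 8 arrays that bear on the difference, 5277 genes passed and the differences were 5.72 for Thbs1 (adjusted p = 0.00668), 2.34 for Thbs2, 2.70 for Thbs3, 5.39 for Thbs4 and 4.13 for Comp. Among pairs of members, Thbs1 minus Thbs4 was -0.14 with values floored and 0.16 to 0.72 with 1 array left out. Thbs1 minus Comp was 1.56 to 2.08 with 1 array left out, and Thbs4 minus Comp was 1.19 without sham 4 and banding 5 (adjusted p = 0.0714). Thbs3 minus Thbs2 was -0.03 with the mean of all probe sets and 0.24 to 0.52 with 1 array left out. The cause of these changes was not tested. Of 74 other named genes, 57 kept their side of the threshold in all alternatives run for them (up to 19). The other 17 did not, among them Tgfb1, Adamts4, Tgfbr3 and Ltbp1 (adjusted p = 0.0545, 0.052, 0.0663 and 0.114 with the replicate block). Gsn, Dpep1 and the atrial markers were not among the 74. Counts without sham 4, or without sham 4 and banding 5, were added after seeing the data.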

Other observations

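The genes beside the thrombospondins on their chromosomes did not share the large rises. Mtx1, which lies before Thbs3 on chromosome 3 and encodes a mitochondrial outer membrane protein, averaged 8.56 ± 0.14 in banding (SD, n = 5), against 8.99 ± 0.17 in sham (SD, n = 4), a difference of -0.43 ± 0.10 (limma adjusted p = 0.0109). Its call was lost without sham 4 and banding 5. Serinc5, before Thbs4 on chromosome 13, rose by 0.85 ± 0.13, at 8.11 ± 0.13 in banding and 7.26 ± 0.27 in sham (adjusted p = 0.00146). Mtx3, after Thbs4, differed by -0.25 ± 0.09 (adjusted p = 0.0694), Upf1, before Comp on chromosome 8, by -0.28 ± 0.10 (adjusted p = 0.0704) and Smoc2, before Thbs2 on chromosome 17, by 0.20 ± 0.20 (adjusted p = 0.521). The other 5 neighbours, Rasgrp1, Fsip1, Wdr27, Muc1 and Crtc1, were dim in both groups.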
